A study of Gallus gallus with 21 samples.

Results

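RSRP1, the cold-inducible RNA-binding protein gene CIRBP, the SR splicing factor genes SRSF1, SRSF3, SRSF6 and SRSF7, and the related factors TRA2A and TRA2B were followed in the retina of control chickens. The 8 genes were taken by their symbols from a table of 18631 genes, and each has 1 row there. The genes were selected on measured values of these same libraries, their levels at the 3 ages and their relation to the chaperone gene HSPA8. Their own differences between ages and their relation to HSPA8 are therefore given as a description without a test.

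The birds were wild-type White Leghorn chickens kept under standard lighting, the control groups of a study on how the eye compensates for defocus imposed by lenses. Collection began from postnatal day 3, and retinas were taken 1, 3 or 6 days later, at postnatal days 4, 6 and 9, with 7 libraries at each age. The labels give neither the sex of a bird nor whether libraries came from separate birds, so the spread is that between libraries and may be partly technical. Whole retina was used, in which fewer cells of a type and less RNA per cell cannot be told apart.

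SR proteins bind exonic sequences in precursor messenger RNA through RNA recognition motifs and recruit the spliceosome through a domain rich in arginine-serine pairs. Kinases of the CLK and SRPK families phosphorylate that domain, which sets where the proteins reside and whether they are active. SR and TRA2 genes limit their own output by including exons with premature stop codons, whose transcripts are removed by nonsense-mediated decay. CIRBP is known in mammals as a glycine-rich protein that is induced by mild cold and follows the daily rhythm of body temperature, whereas HSPA8 encodes the constitutive HSP70 chaperone of the cytosol.

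Levels are CPM, in which a gene's reads are divided by the library total, and are not corrected for transcript length, so levels were not compared between genes. Estimated totals ran from 27.7 to 41.6 megareads per library, of which 29.9% to 34.2% lay in the listed genes. That share was 29.9% to 31.9% at 1 day, 30.8% to 33.3% at 3 days and 32.9% to 34.2% at 6 days. It did not overlap between 1 and 6 days, and its part in the changes of CPM below was not tested. HINTW is W-linked and so absent from male birds. Its level was 121 to 147 CPM in 13 libraries, called HINTW-positive here, while the other 8 ranged from 0.0286 to 0.549 CPM. The 1-day group held 3 libraries with these transcripts, the 3-day group 4 and the 6-day group 6, so this division moved with age. Retina markers were present in all libraries: the table held 22 of 24 fixed markers, of which 21 passed the filter on low values. Their summed level ran from 1799 to 2290 CPM at 1 day, from 2059 to 2578 CPM at 3 days and from 2305 to 2784 CPM at 6 days. Of the 21, 4 rose and 0 fell from 1 to 3 days, 6 rose and 1 fell from 3 to 6 days, and 13 rose and 0 fell from 1 to 6 days (limma, adjusted p under 0.05). Of all genes 7.71%, 17.4% and 30.0% rose in these comparisons. With median-of-ratios scaling the markers had 4 rises and 2 falls, 5 and 1, and 7 and 1. Of all genes 4.21%, 9.47% and 8.40% rose with that scaling. The part of these marker changes in the results below was not tested. Summed markers of pigment epithelium (32.1 to 45.5 CPM, 10 of 10 in the table), lens (15.39 to 25.005 CPM, 10 of 10), leukocytes (4.50 to 9.81 CPM, 9 of 10) and fibroblasts (1.98 to 3.98 CPM, 8 of 9) overlapped between ages. These lists held both present and absent genes. CRYBA4 of the lens list had a median of 15.97 CPM over the 21 libraries, MITF of the pigment list 17.5 CPM and FBLN1 of the fibroblast list 2.07 CPM, whereas CRYAA and MIP of lens, COL1A1 of fibroblasts and MLANA of pigment cells, named after their values were seen, had a median of 0 CPM. From 1 to 3 days CD74, an antigen presentation gene of the leukocyte list, rose from 0.933 to 1.74 CPM (+0.66, limma adjusted p = 0.0115). MITF rose from 3 to 6 days (+0.23, limma adjusted p = 0.0252), and RPE65 of the same list rose from 1 to 6 days (+0.60, limma adjusted p = 0.0306). With median-of-ratios scaling the rise of CD74 still passed and those of the other pair did not. Among HINTW-positive libraries 0 of 4 leukocyte markers passed from 1 to 3 days. With that scaling MITF (-0.24, limma adjusted p = 0.0430) and CRYBA4 (-0.26, limma adjusted p = 0.0243) fell from 1 to 3 days. CRYBA1 of the lens list then fell from 3 to 6 days (-0.37, limma adjusted p = 0.0440). The part of these genes in the results below was not tested. Of red blood cell markers, SLC4A1 alone of 11 was analysed here, with a median of 0 CPM.

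Library C10R at 1 day and library C41R at 3 days stood apart from their ages in several members. C10R held the lowest level of its age in 5 of the 8 genes, and C41R the highest of its age in 5 and a level above the mean log2 level of its age in all 8. Values for RSRP1, CIRBP, SRSF1, SRSF6 and SRSF7 are given without them too.

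RSRP1 (GRCg6a chromosome 23, 2551021 to 2555965, plus strand) encodes a small protein rich in arginine and serine. At 1 day its level ran from 55.2 to 171 CPM with a median of 156 CPM. At 3 days the range was 43.03 to 99.2 CPM around a median of 57.6 CPM, and at 6 days 153 to 186 CPM around 178 CPM. All libraries of 3 days lay below all libraries of 6 days, whereas C10R, at 55.2 CPM, was the only library of 1 day inside the range of 3 days; the next, C21R, stood at 101 CPM, just above C41R. Means were 135 ± 42.3, 59.5 ± 19.2 and 173 ± 11.9 CPM (SD, n = 7 each), and the spread relative to the mean was 31.3%, 32.3% and 6.90%. C10R and C41R widen the spread at 1 and 3 days, which was not computed without them. The log2 fold change was -1.14 (SE 0.20) from 1 to 3 days, which ranked 2 among 12614 genes ordered from the largest fall. From 3 to 6 days it was +1.58 (SE 0.20), rank 9 among the increases. From 1 to 6 days it was +0.44 (SE 0.20), and without C10R +0.24. Without C10R and C41R the changes to and from 3 days were -1.47 and +1.71. Among the 13 libraries with HINTW transcripts they were -1.12 and +1.46.

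TRA2A (chromosome 2, 31280845 to 31304604, minus strand) encodes a splicing activator related to transformer-2 of flies. Its libraries ran from 45.57 to 58.997 CPM at 1 day (median 55.5), from 37.9 to 48.6 CPM at 3 days (median 43.9) and from 49.9 to 60.3 CPM at 6 days (median 54.8). The dip at 3 days was shallower than that of RSRP1 on the log2 scale. All libraries of 3 days lay below all of 6 days, and C10R alone put 1 day into the range of 3 days. The log2 fold changes were -0.32 (SE 0.06) from 1 to 3 days, +0.32 (SE 0.06) from 3 to 6 days and 0.00 (SE 0.06) from 1 to 6 days. Among the HINTW-positive libraries they were -0.32, +0.32 and 0.00.

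TRA2B (chromosome 9, 4565891 to 4584182, plus strand), the paralog of TRA2A, had another course. Its level was 7.90 to 10.2 CPM at 1 day (median 9.65), 9.55 to 12.2 CPM at 3 days (median 10.96) and 10.1 to 12.2 CPM at 6 days (median 11.7). The ages overlapped in every pair, yet all 7 libraries of 3 days and all 7 of 6 days exceeded the mean of 1 day. The log2 fold changes were +0.19 (SE 0.06), +0.07 (SE 0.06) and +0.26 (SE 0.06) for 1 to 3, 3 to 6 and 1 to 6 days.

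**Figure D1:**
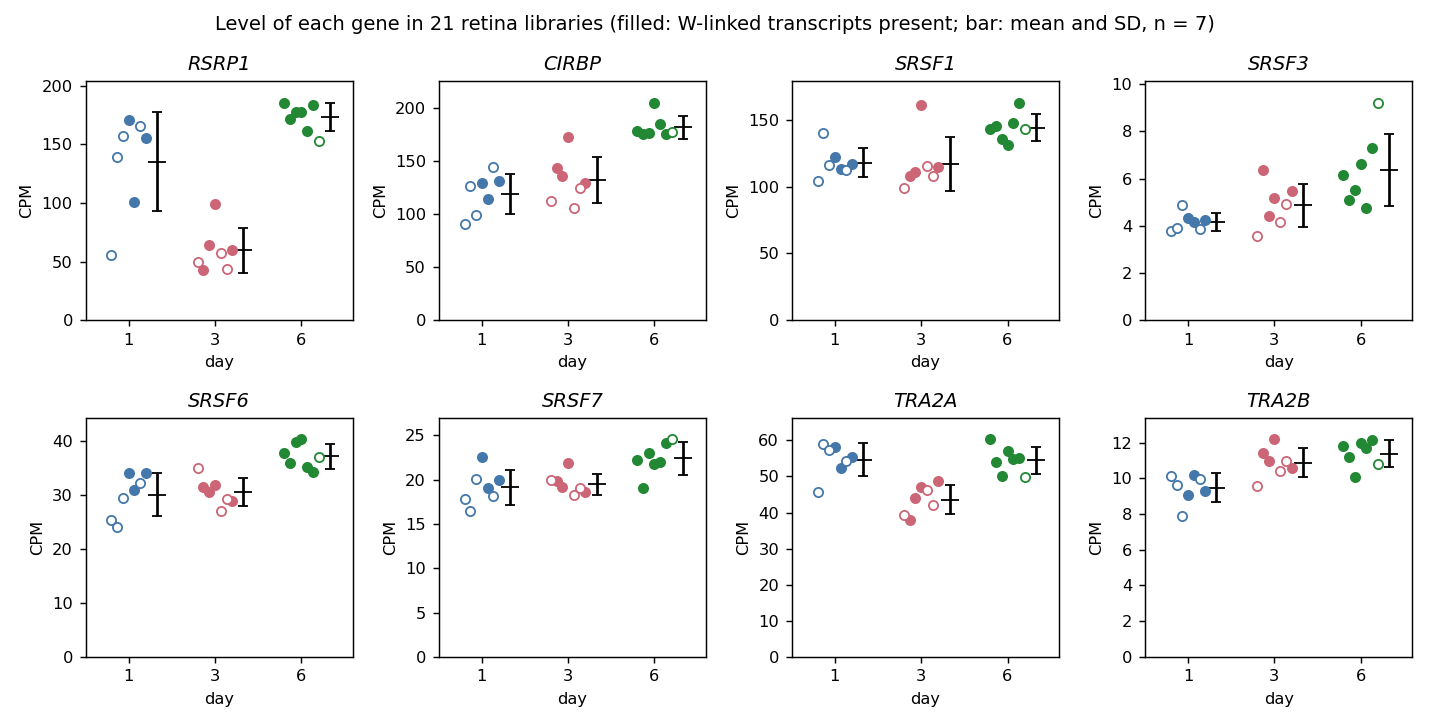
Level in CPM (vertical axes, from 0) of the 8 genes in each of 21 libraries, by day (horizontal axes), with mean and SD of 7 libraries as black bars. Filled circles are libraries with W-linked transcripts and open circles those without. RSRP1 and TRA2A are lowest at 3 days, and the open circle of RSRP1 at 55.2 CPM on day 1 is C10R.

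CIRBP (chromosome 28, 3175015 to 3182018, plus strand) was highest at 6 days. It stood at 90.8 to 144 CPM at 1 day (median 126), at 106 to 173 CPM at 3 days (median 129) and at 175 to 205 CPM at 6 days (median 177). Every library of 6 days lay above every library of 1 and of 3 days, while those of 1 and 3 days overlapped widely. Means were 119 ± 18.9, 132 ± 22.1 and 182 ± 10.8 CPM (SD, n = 7 each). The log2 fold changes were +0.15 (SE 0.10) from 1 to 3 days, +0.47 (SE 0.10) from 3 to 6 days and +0.62 (SE 0.10) from 1 to 6 days. The first was +0.08 without C10R, the lowest library of 1 day, +0.08 without C41R, the highest of 3 days, and +0.02 without both, whereas the last 2 were then +0.54 and +0.56. Among HINTW-positive libraries the first was larger, at +0.21, and the last 2 were +0.33 and +0.55. Within each age the mean was higher with W-linked transcripts than without: 125 against 115 CPM at 1 day, 145 against 114 CPM at 3 days and 182 against 177 CPM at 6 days, where a single library lacked them. RBM3, the other cold-inducible protein of this family, was not analysed here.

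SRSF1 (chromosome 19, 8854422 to 8858056, plus strand), the founding SR protein, ran from 104 to 140 CPM at 1 day (median 116), from 99.0 to 161 CPM at 3 days (median 111) and from 131 to 163 CPM at 6 days (median 143). At 3 days C41R, at 161 CPM, stood far above the next library, at 115 CPM. Without C41R and C10R the change from 1 to 3 days was -0.13 in place of -0.03 (SE 0.08), and that from 3 to 6 days +0.40 in place of +0.32 (SE 0.08). From 1 to 3 days it was +0.06 among HINTW-positive libraries and +0.02 without C17L, so no direction is given for SRSF1 there.

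SRSF6 (chromosome 20, 119215 to 123855, minus strand), an SR protein with a pair of RNA recognition motifs, ran from 24.1 to 34.1 CPM, from 27.1 to 35.1 CPM and from 34.2 to 40.3 CPM at the 3 ages. Its libraries of 6 days lay above all those of 1 day, by a narrow margin of 34.22 against 34.07 CPM. The log2 fold changes were +0.03 (SE 0.07), +0.28 (SE 0.07) and +0.31 (SE 0.07) in the order used above. Means of SRSF6 were 30.0, 30.6 and 37.2 CPM with all libraries, and 32.96, 30.7 and 37.2 CPM among HINTW-positive libraries. SRSF7 (chromosome 3, 16639934 to 16647015, plus strand), which joins splicing to export of the message, ran from 16.4 to 22.6 CPM, from 18.3 to 21.8 CPM and from 19.04 to 24.5 CPM. Its ages overlapped in every pair, and its changes of +0.03, +0.19 and +0.22 (SE 0.06 each) were small. Means of SRSF7 were 19.1, 19.5 and 22.4 CPM with all libraries, and 20.55, 19.8 and 22.04 CPM among HINTW-positive libraries.

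SRSF3 (chromosome 26, 1584209 to 1590146, plus strand), a small SR protein, was spread most at 6 days when all libraries were counted. Its libraries ran from 3.77 to 4.87 CPM at 1 day, from 3.57 to 6.36 CPM at 3 days and from 4.74 to 9.22 CPM at 6 days. The spread relative to the mean was 8.96%, 18.9% and 24.1%, the last with C65L included. Its log2 fold changes were +0.19, +0.35 and +0.53 (SE 0.12 each), and among HINTW-positive libraries that from 3 to 6 days was +0.13. The highest library, C65L at 9.22 CPM, was the single library of 6 days without W-linked transcripts, and without it the same change was +0.26.

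At the adjusted p of 0.05 that limma gave over all genes, 2 of the 8 genes lay past the threshold from 1 to 3 days, RSRP1 and TRA2A, both lower. Across all 12614 genes 10.1% were past it, 7.71% higher and 2.43% lower. From 3 to 6 days 7 of the 8 were past it, all but TRA2B and all higher, beside 22.3% of all genes, 17.4% higher and 4.93% lower. From 1 to 6 days 6 of the 8 were past it, all but RSRP1 and TRA2A and all higher, beside 32.5% of all genes, 30.0% higher and 2.57% lower. Ages did not overlap for 0, 3 and 2 of the 8 genes in these comparisons, beside 2.03%, 4.70% and 9.60% of all genes. Since the genes were chosen with these comparisons known, nothing is read from the counts. The median log2 fold change of the 8 was +0.03, +0.32 and +0.30, and that of all genes tested was +0.07, +0.07 and +0.14.

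Median-of-ratios scaling, under which a typical gene does not shift, gave the 8 genes medians of -0.05, +0.25 and +0.15. From 1 to 3 days 2 of the 8 were then past the threshold, beside 4.21% of all genes higher and 5.96% lower. For 3 to 6 days the count was 5, beside 9.47% higher and 7.96% lower, and for 1 to 6 days 2, CIRBP and SRSF3, beside 8.40% higher and 8.48% lower. The change of RSRP1 was then -1.23 and +1.51, that of TRA2A -0.40 and +0.25, and TRA2A was -0.15 from 1 to 6 days. CIRBP stood at +0.47 from 1 to 6 days. SRSF6 and SRSF7 turned from +0.03 each to -0.05 each from 1 to 3 days, and TRA2B from +0.07 to 0.00 from 3 to 6 days. On CPM, without that scaling, SRSF6 and SRSF7 stood at -0.02 and -0.01 from 1 to 3 days when C10R and C41R were left out. No direction is given for these genes in those comparisons. With presence of W-linked transcripts as a covariate the counts were 2 lower, 5 higher and 6 higher, beside 2.85%, 15.0% and 21.6% of all genes in the same directions. In the 13 HINTW-positive libraries they were 1, 4 and 1, beside 0.780%, 6.77% and 6.41%. Without C10R and C41R they were 2, 7 and 6, beside 3.39%, 20.6% and 26.1%.

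**Figure D2:**
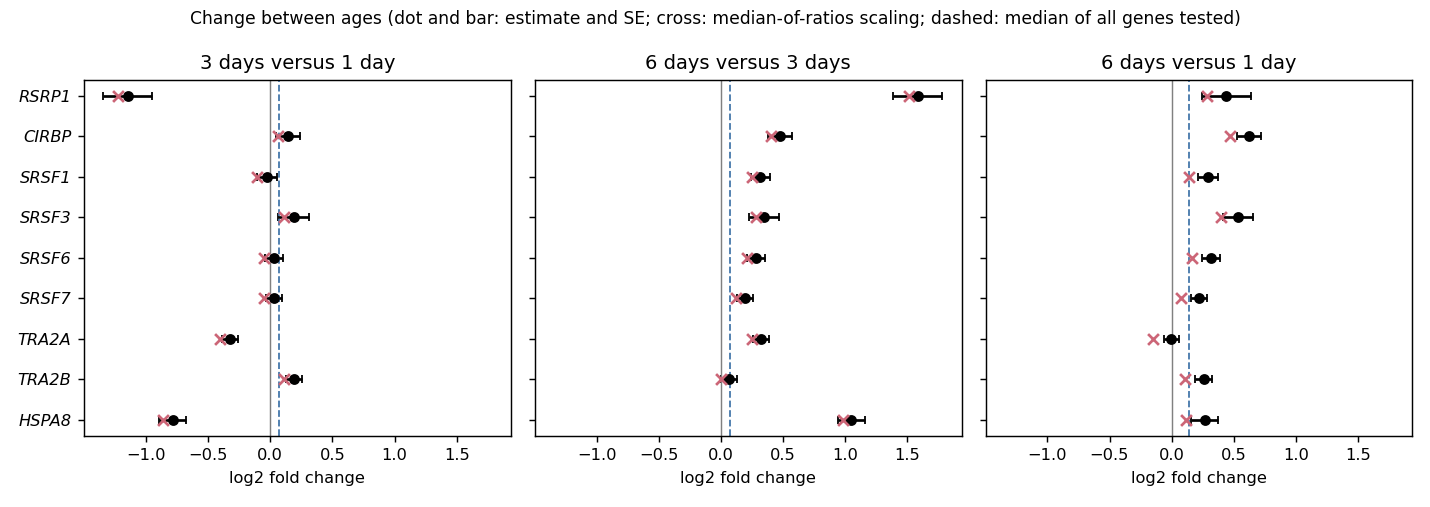
Log2 fold change (horizontal axes) of the 8 genes and HSPA8 in the 3 comparisons of ages, with SE as bars; crosses give the value with median-of-ratios scaling and the dashed line the median of all 12614 genes. RSRP1 and HSPA8 lie far left from 1 to 3 days and far right from 3 to 6 days, at -1.14 and -0.78 and at +1.58 and +1.05.

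HSPA8 (chromosome 24, 3102900 to 3107843, plus strand), with which LOC112530277 and LOC112530278 overlap on the same strand, ran from 375 to 558 CPM at 1 day. It ran from 198 to 366 CPM at 3 days and from 508 to 691 CPM at 6 days. RSRP1 and HSPA8 were both lowest at 3 days, and a correlation over all 21 libraries would mostly restate the ages. It was therefore taken within ages, on log2 levels with the mean of each age subtracted. The libraries of a pair of genes share depth and scaling, and all correlations below are descriptions without a p.

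Within ages TRA2A followed HSPA8 most closely among the 8, with Pearson r = 0.71 and Spearman rho = 0.59 over 21 libraries. RSRP1 had r = 0.59 and rho = 0.48. Of all 12613 other genes, 99.4% had a lower r than TRA2A and 98.0% a lower r than RSRP1; the middle 90% of genes ran from -0.49 to 0.48 around a median of -0.04. The other 6 lay inside that range: SRSF1 at 0.30, SRSF6 at 0.11, CIRBP at 0.07, SRSF7 at -0.05, SRSF3 at -0.19 and TRA2B at -0.20. Without C10R and C41R the r of RSRP1 was 0.45, inside the range that all genes had over 21 libraries, and that of TRA2A was 0.61. The stress chaperone gene HSP90AA1, taken as a point of comparison, had r = 0.93.

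The slope within ages was 1.07 log2 units of RSRP1 for each log2 unit of HSPA8 (SE 0.31), and 0.37 (SE 0.09) for TRA2A. These values pool ages that differed. The slope of RSRP1 was 2.93 at 1 day with C10R included, 0.59 at 3 days and 0.41 at 6 days. For TRA2A it was 0.55, 0.34 and 0.24. In limma with age in the model, 0.468% of all genes had a slope past an adjusted p of 0.05, 0.349% positive and 0.119% negative, and none of the 8 was among them. With median-of-ratios scaling 1.15% were past it, 0.921% positive and 0.230% negative, and TRA2A alone of the 8 was (slope 0.41). With HSP90AA1 in place of HSPA8, 152 of 12613 genes were past it, RSRP1 (slope 0.93) and TRA2A (0.30) among them. These counts too are a description. C10R was the lowest library of 1 day in both RSRP1 and HSPA8. The slope of RSRP1 was 0.45 without C10R and C41R, and 1.57 without C33R and C34L. C33R and C34L, both of 3 days, were farthest from the median of HSPA8 over all 21 libraries, not within ages. From the mean of its age C33R deviated by -0.53 in HSPA8 and C34L by -0.21, beside -0.40 for C10R. At 1 day the r of RSRP1 was 0.93 with C10R and 0.55 without it (n = 6), at 3 days 0.44 and at 6 days 0.66.

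For TRA2A the libraries of 3 days had r = 0.80 and rho = 0.82. At 1 day its r of 0.80 came with a rho of 0.11, and without C10R r was -0.21. At 6 days r was 0.41. Over all ages r was 0.68 without C33R and C34L and 0.61 without C10R and C41R. The r of CIRBP differed in sign between ages, each taken over 7 libraries. Its r was 0.84 at 1 day, where it was 0.78 without C10R, but -0.31 at 3 days, or -0.71 without C41R, and -0.43 at 6 days. Over all ages its r of 0.07 was 0.30 without C33R and C34L and -0.36 without C10R and C41R. This was not particular to CIRBP. SRSF3, SRSF6 and SRSF7 had r of 0.34, 0.67 and 0.35 at 1 day and of -0.39, -0.37 and -0.21 at 3 days. Without C10R the r of SRSF3 at 1 day was -0.40.

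**Figure D3:**
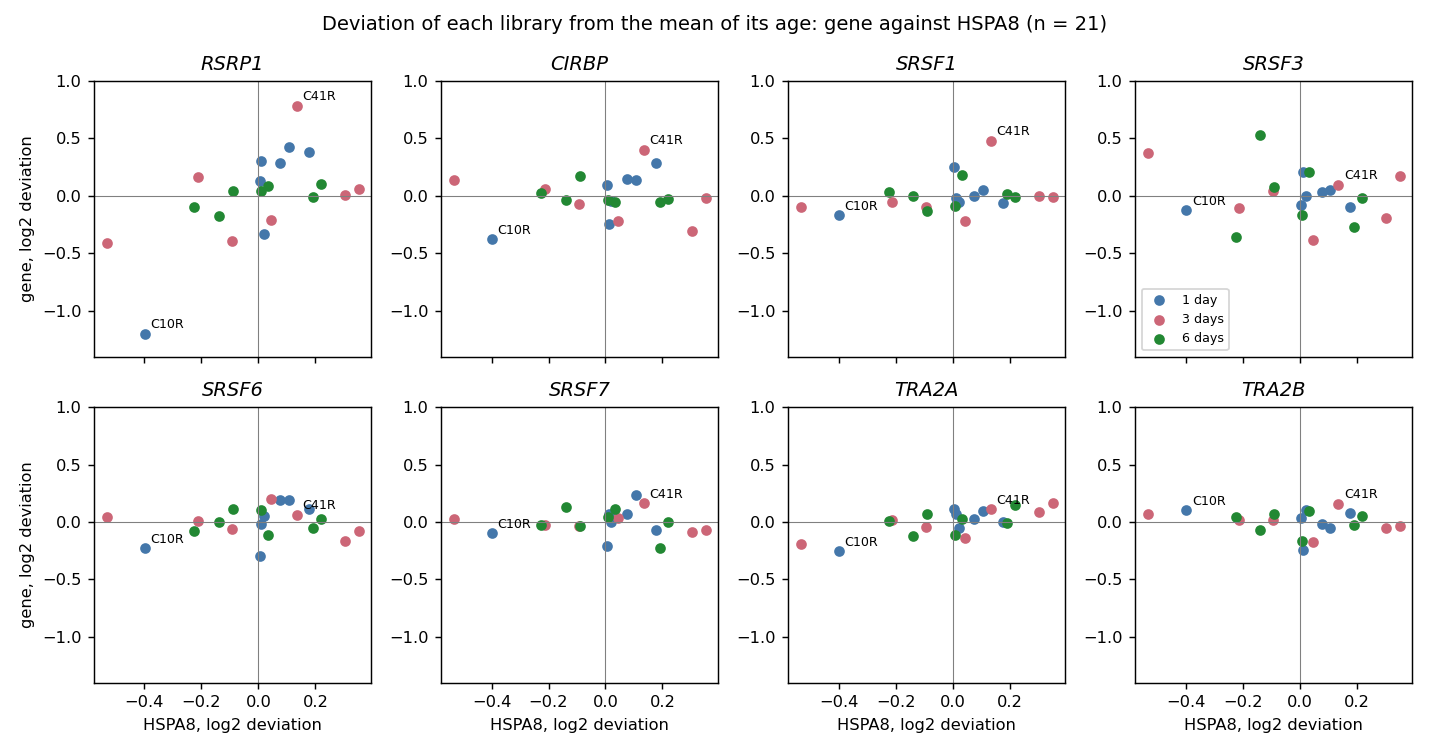
Log2 deviation of each library from the mean of its age, for each of the 8 genes (vertical axes) against HSPA8 (horizontal axes), coloured by age, n = 21. C10R lies lowest in both RSRP1 and HSPA8 among libraries of 1 day, and the points of TRA2A run upward with an r of 0.71.

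Among themselves, 23 of the 28 pairs of the 8 genes had a positive r after the age means were subtracted, from -0.23 to 0.75 around a median of 0.23. RSRP1 and TRA2A were the highest pair at 0.75, followed by RSRP1 with CIRBP at 0.64 and RSRP1 with SRSF1 at 0.62. C10R and C41R weigh on these pairs. C10R deviated from its age mean by -1.20 in RSRP1, -0.25 in TRA2A, -0.38 in CIRBP and -0.17 in SRSF1. For C41R the deviations were +0.79, +0.11, +0.40 and +0.48. The pairs were not computed without these libraries. SRSF6 and SRSF7 stood at 0.58. The paralogs TRA2A and TRA2B were at 0.04, and the lowest pair was SRSF1 and SRSF6.

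The genes most like RSRP1 over the 21 libraries, among 7165 named genes with a mean of at least 5 CPM, were KLHL2, an adaptor of a ubiquitin ligase (r = 0.95), the paraspeckle gene PSPC1 (0.95) and PPP4R2, a phosphatase subunit (0.94). JMJD6, an oxygenase, and HSPA4, an HSP110-type chaperone, followed at 0.94 each. With the age means subtracted their r was 0.77 to 0.84. JMJD6 had means of 7.05, 4.25 and 8.33 CPM at 1, 3 and 6 days, and KLHL2 of 109, 79.6 and 128 CPM. Most like CIRBP were the splicing repressor gene PTBP1 (r = 0.95), KPNA6, an importin (0.95), DNAJA3, a mitochondrial cochaperone (0.95), and EPS15L1 of endocytosis (0.95). With age means subtracted these had r from 0.83 to 0.89.

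SRSF1 was most like PNISR, a serine- and arginine-rich protein gene, at r = 0.96 and at 0.95 within ages, and TTC14 (0.96, and 0.92 within ages). Every r to a nearest gene was taken with C10R and C41R included. For TRA2A the nearest were RCAN1, which inhibits calcineurin (0.91), and HSP90AA1 (0.91). The nearest of the other members were TNRC18 and SMARCC1 for SRSF3 (0.90 and 0.89), KIAA1191 and EIF4G2 for SRSF6 (0.88 each), HMGXB4 and AKAP10 for SRSF7 (0.88 and 0.87) and MTHFSD and DLG3 for TRA2B (0.90 each). With age means subtracted, the r of these genes and of those nearest TRA2A ran from 0.72 to 0.82.

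Measures that had no part in the choice were the W-linked division and the letter L or R that ends each library's code. With age in the model, 4.67% of all genes differed between libraries with and without W-linked transcripts (limma, adjusted p under 0.05), 1.34% higher and 3.33% lower with them, and none of the 8 genes passed. The median log2 difference of all genes tested was +0.06, and 73.8% of genes had a positive difference. CIRBP was nearest, 0.20 higher on the log2 scale with W-linked transcripts (SE 0.08, 95% interval 0.05 to 0.35, limma unadjusted p = 0.0148, adjusted p = 0.171). Over 4 alternative settings its difference ran from +0.14 to +0.22 (limma adjusted p from 0.143 to 0.462). The difference for RSRP1 was +0.27 (interval -0.06 to 0.60, limma adjusted p = 0.435), and for the other 6 genes it lay between +0.02 and +0.11. For these 6 the limma adjusted p ran from 0.395 to 0.942.

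Between the letters L and R, 0 of 12614 genes passed in limma, with 349 at an unadjusted p under 0.05. For RSRP1 the difference of L minus R was +0.21 (interval -0.12 to 0.53), and for the others it lay between -0.04 and +0.04. None of the 8 passed, at 0% of all genes.

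Shares of all genes belong beside the counts of the lists below. From 1 to 3 days 7.71% rose and 2.43% fell, and from 3 to 6 days 17.4% and 4.93%. From 1 to 6 days 30.0% rose and 2.57% fell. With median-of-ratios scaling the shares were 4.21% and 5.96%, 9.47% and 7.96%, and 8.40% and 8.48%. Among HINTW-positive libraries 169 of 12301 genes rose and 96 fell from 1 to 3 days, 6.77% rose from 3 to 6 days and 6.41% from 1 to 6 days. Of 9 other SR proteins on the list 6 were in the table. From 1 to 3 days 0 of them passed, beside 4 rises and 0 falls from 3 to 6 days and again from 1 to 6 days. The 4, named after their values were seen, were SRSF2, SRSF4, SRSF5 and SRSF11. SRSF5 had means of 23.4, 20.2 and 30.6 CPM and rose by 0.59 from 3 to 6 days (SE 0.07, limma adjusted p = 9.05e-06). SRSF2 had 28.5, 27.2 and 37.2 CPM and rose by 0.45 (SE 0.06, limma adjusted p = 1.55e-05). SRSF5A stood at 41.9 ± 4.30, 37.1 ± 3.21 and 39.2 ± 4.09 CPM (SD, n = 7 each) and passed in no comparison. With median-of-ratios scaling there were 0 rises and 2 falls from 1 to 3 days, 2 and 0 from 3 to 6 days, and 2 and 2 from 1 to 6 days. SRSF5A was then among the falls of the first and last of these (limma adjusted p = 0.0465 and 0.0387). The other fall from 1 to 3 days was SRSF5 (-0.29, limma adjusted p = 0.0116), which also fell without C10R and C41R. In the main fit its change was -0.20 (limma adjusted p = 0.0588).

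Of 8 kinases that phosphorylate SR proteins, 2 rose and 0 fell from 1 to 3 days, and 3 rose and 1 fell from 3 to 6 days. CLK3, a dual-specificity kinase of the nucleus, rose from 5.801 ± 0.612 to 8.84 ± 0.863 CPM (SD, n = 7 each; +0.57, limma adjusted p = 5.87e-05) and then fell to 7.08 ± 0.624 CPM (-0.30, limma adjusted p = 0.00737). CLK4, a related kinase named after its values were seen, stood at 12.8, 10.3 and 13.9 CPM. Its change from 1 to 3 days was -0.30 (limma adjusted p = 0.0829), and it rose by 0.43 from 3 to 6 days. DYRK1A rose from 17.7 to 20.4 CPM by 3 days (+0.19, limma adjusted p = 0.0181). With C10R and C41R left out 2 rose and 2 fell from 1 to 3 days, and with median-of-ratios scaling 1 rose and 2 fell. Among HINTW-positive libraries CLK3 alone passed from 1 to 3 days. From 1 to 6 days 5 rose and 0 fell, and with that scaling 0 passed.

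Coactivators with RS domains showed 2 rises and 1 fall in 31 genes from 1 to 3 days. RBM39, which resembles the splicing factor U2AF2, fell from 51.2 ± 4.30 to 43.7 ± 3.42 CPM (-0.22, limma adjusted p = 0.0175) and rose to 53.9 ± 3.51 CPM at 6 days (+0.30, limma adjusted p = 0.00107). SCAF11 (+0.22) and SCAF4 (+0.27) rose from 1 to 3 days. With median-of-ratios scaling there were 0 rises and 5 falls. From 3 to 6 days 13 rose and 0 fell (8 and 0 with that scaling), and from 1 to 6 days 17 and 0 (3 and 1). Among HINTW-positive libraries the rises in these later comparisons were 6 and 4, and 0 of 31 passed from 1 to 3 days.

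Among 24 hnRNP genes, whose products often oppose SR proteins at splice sites, SYNCRIP (+0.22), PCBP2 (+0.19) and RALY (+0.31) rose from 1 to 3 days and 0 fell. With median-of-ratios scaling RALY alone passed, without C10R and C41R SYNCRIP and PCBP2, and among HINTW-positive libraries 0 of 24 did. In the later interval 10 rose and 1 fell, PCBP2 at -0.16. From 1 to 6 days 15 rose and 0 fell, which became 7 and 4 with median-of-ratios scaling. RBMX, a glycine-rich relative of the hnRNP proteins and the only one of 3 such genes on its list analysed here, had means of 35.2, 31.8 and 44.01 CPM and rose by 0.47 from 3 to 6 days (limma adjusted p = 9.08e-05).

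In the core spliceosome 1 of 41 genes rose and 1 fell from 1 to 3 days. SLU7, which acts in choice of the downstream splice site, fell from 27.3 ± 1.504 to 22.2 ± 3.34 CPM (-0.30, limma adjusted p = 0.0136) and rose to 33.7 ± 2.95 CPM (+0.60, limma adjusted p = 1.91e-05). SNRPA1 of the U2 particle rose by 0.42. Between 3 and 6 days 20 rose and 0 fell, beside 17.4% and 4.93% of all genes. With median-of-ratios scaling 12 rose and 1 fell, beside 9.47% and 7.96%. From 1 to 6 days 27 rose and 0 fell, beside 30.0% and 2.57% of all genes. With that scaling 10 rose and 0 fell, beside 8.40% and 8.48%. Among HINTW-positive libraries 0 of 41 passed from 1 to 3 days. There 7 rose from 3 to 6 days and 8 from 1 to 6 days, beside 6.77% and 6.41% of all genes. Splicing regulators with tissue-specific roles differed in direction from 1 to 3 days, 4 up and 1 down in 22. MSI1, a marker of neural progenitors, rose from 51.0 to 67.9 CPM (+0.42), MBNL2 rose from 34.4 to 44.1 CPM (+0.36), and KHDRBS3 fell from 60.9 to 45.6 CPM (-0.42). Among HINTW-positive libraries MBNL2 and KHDRBS3 alone of this list passed from 1 to 3 days. From 1 to 6 days 9 rose and 0 fell, but 1 rose and 6 fell with median-of-ratios scaling.

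Nonsense-mediated decay genes, which remove the unproductive SR transcripts, had 1 rise in 13 from 1 to 3 days, EIF4A3 at +0.38 (limma adjusted p = 0.00157). Between 3 and 6 days 7 rose and 0 fell, with median-of-ratios scaling 3 and 0, and among HINTW-positive libraries 1 and 0. The list of heat shock factors and cytosolic chaperones also holds the mitochondrial HSPD1 and HSPE1. It had 1 rise and 11 falls in 24 genes from 1 to 3 days, then 15 rises and 0 falls from 3 to 6 days. HSPD1 was among both the falls and the later rises. HSPA8 (-0.78), HSP90AA1 (-0.83) and HSPA4L (-0.39) were the falls with the smallest p. With median-of-ratios scaling the counts were 0 and 12, then 14 and 0. HSPA8 had a part in the choice of the 8 genes, so its values and its place in these counts are a description. This list and those of splicing genes were chosen with earlier results known, and nothing is read from their counts. Within ages, 8 of 23 genes of the heat shock list had a positive slope on HSPA8 past the threshold, beside 0.349% of all genes. Of 31 coactivators with RS domains 1 had, and of 6 other SR proteins 0.

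**Figure D4:**
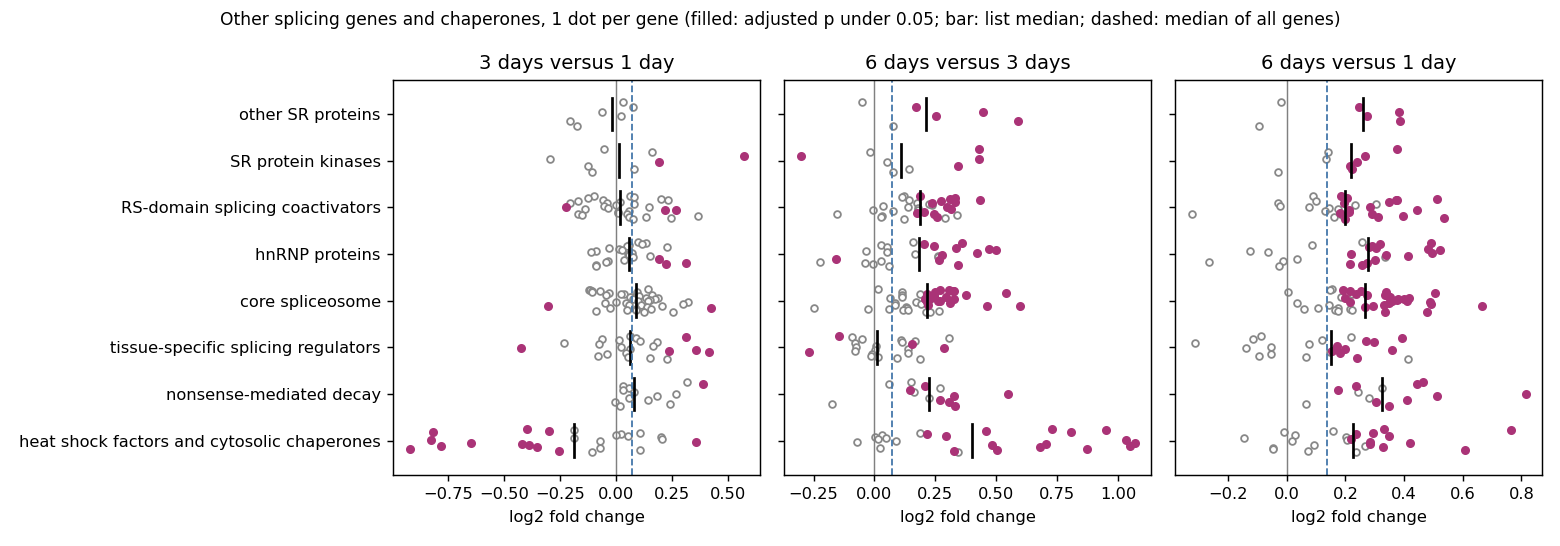
Log2 fold change (horizontal axes) of each gene of 8 lists in the 3 comparisons of ages; filled dots passed an adjusted p of 0.05 in limma, bars mark list medians and the dashed line the median of all genes. The chaperone list has a median of -0.19 from 1 to 3 days and +0.40 from 3 to 6 days, whereas the list of other SR proteins stands at -0.02 and +0.21.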

How the data were processed

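The authors deposited a table of CPM values for 18631 genes, 1 column per library, and 0 columns were left out. STAR, Partek and the build GRCg6a were used, per the submitters' processing notes; versions, annotation and counting rules are not given in the sources used here. An offset of 0.0001 CPM, the minimum of every column, was subtracted. Low values lay on multiples of 1 step per library for 94.2% to 95.3% of values (tolerance 0.1 step), which gave the totals; whole reads were not recovered, so no count test was run. The 12614 genes that reached 0.5 CPM in 7 or more libraries, all 8 members among them, were fitted as log2(CPM + 0.5) in limma 3.58.1 (R 4.3.3) with a mean-variance trend and Benjamini-Hochberg adjustment over all genes. Fold changes on this scale understate those of low genes. "Rose" and "fell" mean an adjusted p under 0.05, two-sided. W-linked libraries had HINTW over 10 CPM. Positions are those of the deposited table, as written there. Its chromosome accessions were given names through a RefSeq gene table (GRCg7b), which holds 15419 of the symbols; 97.1% to 100% of the matched genes on a chromosome named here shared its name.

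The members and lists were chosen with earlier results of these data known. Named genes are the members, HSPA8, in every list at most 3 genes past the threshold from 1 to 3 days, taken by lowest adjusted p (where none passed, the most abundant), and the genes most correlated with each member among those of at least 5 CPM, 5 for RSRP1 and CIRBP and 2 for the others; some genes are not reported here. Alternatives were other pseudocounts, no filter, median-of-ratios scaling, W-linked and letter covariates, W-linked libraries alone and leaving out each library; leaving out C10R and C41R was chosen after seeing the data. The workflow was tested on simulated data.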

Additional observations from a re-analysis of the deposited data

Results flagged for a closer look

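A sample far from the others of its age was looked for in 24 groups, the 8 genes at 3 ages, where chance alone gives about 1 flag in 20. There were 3. At 3 days, library C41R held 99.2 CPM of RSRP1, against 64.1 CPM in the next library, and 161 CPM of SRSF1, against 115 CPM in the next. At 6 days, library C62L held 205 CPM of CIRBP, against 185 CPM in the next. Library C10R, left out in several values above, was not among the flags.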

How the results depend on the processing

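No paired analysis was possible because the ages share no replicate number. The numbers of genes past the threshold were within 1.5 times of those reported under the alternatives tried, with these exceptions. Among the 13 HINTW-positive libraries they were 265 of 12301 from 1 to 3 days (1279 with all libraries), 1173 from 3 to 6 days (2813) and 870 from 1 to 6 days (4103), with fewer libraries in the fit. With median-of-ratios scaling it was 2127 from 1 to 6 days. Rises and falls were then 531 and 751, 1193 and 1003, and 1058 and 1069, in place of 972 and 307, 2191 and 622, and 3779 and 324. The count for the HSPA8 slope, 59, became 145 with that scaling, 152 with HSP90AA1 in place of HSPA8, 18 without C33R and C34L and 33 without C10R and C41R; the cause was not tested. Near 0, the W-linked difference of SRSF3 reversed to -0.0287 with median-of-ratios scaling, and the letter difference of SRSF1 reversed to 0.00210 with the W-linked covariate. Leaving out each library in turn, RSRP1 ran from -1.34 to -1.07 from 1 to 3 days, from +1.51 to +1.71 from 3 to 6 days and from +0.24 to +0.51 from 1 to 6 days. Between 3 and 6 days SRSF3 missed the threshold without any one of C31L, C34L, C42L, C43R, C57L, C62L, C64L or C65L (limma adjusted p up to 0.107), and SRSF7 without any one of C34L, C42L, C43R, C44R, C57L, C59L, C64L or C65L (up to 0.0753); without C65L the change of SRSF3 was +0.26. TRA2B from 1 to 3 days was past it without C31L or without C42L (limma adjusted p = 0.0356 and 0.0454), against 0.0604 with all libraries. TRA2A from 1 to 3 days had a limma adjusted p of 0.0517 among HINTW-positive libraries, at the same fold change. Adjusted p of members between ages are a description and no test, since the genes were chosen with these comparisons known. SRSF3, at 3.57 to 9.22 CPM, has the least depth of the 8 genes.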
